A study of Danio rerio with 6 samples.

Results

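The transcription factor genes foxc1a, foxc1b, snai1a and twist1a were examined as markers of the mesenchyme that surrounds the eye, in pools of zebrafish retina dissected with and without the retinal pigment epithelium (RPE). They were chosen by gene symbol from a list of 6 genes. Of the 6, lmx1bb and twist1b were not matched to a probe set and are not analysed here, so 4 genes with 1 probe set each were measured, among 8793 named genes and 15502 tested probe sets. The arrays held 3 pools of retina with RPE attached and 3 pools of retina alone. Every pool came from wild-type AB strain embryos at 52 hours post fertilization, joined 10 dissected tissues and gave 33 ng of total RNA for labelling. No pool carried a transgene, mutation or treatment according to its labels. The labels do not say which embryos or clutches a pool came from, so p-values measure the spread between pools.

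Periocular mesenchyme is the loose tissue between the optic cup and the skin. It comes from the cranial neural crest and from head mesoderm, and it supplies corneal stroma, the angle of the anterior chamber, sclera and the connective tissue of the eye muscles. Foxc1 is a forkhead factor of this tissue, and loss of FOXC1 in humans causes malformation of the anterior segment. Snail factors are zinc finger repressors of epithelial cadherin genes in cells that leave an epithelium. Twist factors are basic helix-loop-helix proteins of head mesenchyme and cranial sutures, and Lmx1b is a LIM homeodomain factor needed for the cornea and iris stroma. None of these genes is specific to the eye, since foxc1a also acts in somites and vessels and snai1a in mesoderm.

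Of the 4 genes, 3 rose in retina with RPE and 1 was not called. The zinc finger gene snai1a was 2.23-fold higher (95% interval 1.80 to 2.77), foxc1a 1.78-fold (1.32 to 2.40) and foxc1b 1.59-fold (1.40 to 1.81). Calls were made where the adjusted p of limma was under 0.05, with Benjamini-Hochberg adjustment over 15502 probe sets. That rule called 34.5% of all probe sets, 19% higher and 15.6% lower, so a single call was common in this comparison. The excess of higher over lower calls depended on the scaling, with 2175 higher and 2327 lower after cyclic loess and 2266 higher and 2276 lower after quantile normalization, against 2938 higher and 2417 lower as deposited. The groups of 3 arrays did not overlap in the same 3 genes, all higher with RPE, against 49.5% of all probe sets, 28.7% higher and 20.8% lower. The median log2 change of the 4 genes was 0.75, against 0.04 over all probe sets.

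The forkhead gene foxc1a read 169, 109.5 and 93.3 in the 3 pools of retina with RPE, against 61.2, 78.7 and 63.7 in the 3 pools of retina, in deposited intensity units. All pools with RPE lay above all retina pools, and the lowest of them exceeded the highest retina pool 1.19-fold. Pool 1 with RPE stood well above pools 2 and 3. The group means were 124 ± 39.9 in retina with RPE and 67.9 ± 9.49 in retina (SD, n = 3 each), and the log2 change was 0.83 ± 0.194 (SE, limma adjusted p = 0.00966). Without pool 1 the log2 change was 0.58 (limma adjusted p = 0.0181). An ordinary test of this probe set alone, which borrows no spread from the others, did not call it (adjusted p = 0.117).

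Its paralog foxc1b read 44.7, 45.9 and 41.3 in retina with RPE, against 26.8, 27.9 and 28.2 in retina. The groups did not overlap, and within each group the pools lay close together. The means were 43.9 ± 2.38 in retina with RPE and 27.6 ± 0.757 in retina (SD, n = 3 each). The log2 change was 0.67 ± 0.0840 (SE, limma adjusted p = 5.4e-04). The coefficient of variation over pools with RPE was 5.41% for foxc1b and 32.2% for foxc1a. It was also larger for foxc1a over the retina pools, so the wider spread of foxc1a was not limited to pools with RPE. These coefficients describe the level and not the excess, and their difference was not tested. The changes of foxc1a and foxc1b differed by 0.16 ± 0.258 on the log2 scale (SE, exact permutation p = 0.6), and that difference was smaller than its error.

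The gene snai1a read 46.0, 60.3 and 47.1 in retina with RPE, against 19.0, 26.0 and 23.8 in retina. The groups stood apart, with the lowest pool with RPE 1.77-fold above the highest retina pool, and here pool 2 was the highest. Means were 51.1 ± 7.95 in retina with RPE and 22.9 ± 3.58 in retina (SD, n = 3 each). The log2 change was 1.16 ± 0.140 (SE, limma adjusted p = 4.7e-04), the 64th largest rise among all tested probe sets.

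The gene twist1a read 19.0, 14.4 and 15.8 in retina with RPE, against 14.5, 13.5 and 15.0 in retina. The groups overlapped, and again pool 1 with RPE was the highest. Means were 16.4 ± 2.32 in retina with RPE and 14.3 ± 0.744 in retina (SD, n = 3 each), with a log2 change of 0.19 ± 0.110 (SE, limma adjusted p = 0.215). The 95% interval of its fold, 0.960 to 1.35, holds both no change and a modest rise. Its retina mean stood at percentile 9.59 of all probe sets, where the deposited values carry no detection call, so a change of a transcript near that level may not have been measurable. For each of snai1a, foxc1a and foxc1b the exact permutation test of 3 against 3 arrays gave p = 0.1, the smallest possible, and for twist1a it gave p = 0.3.

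**Figure D1:**
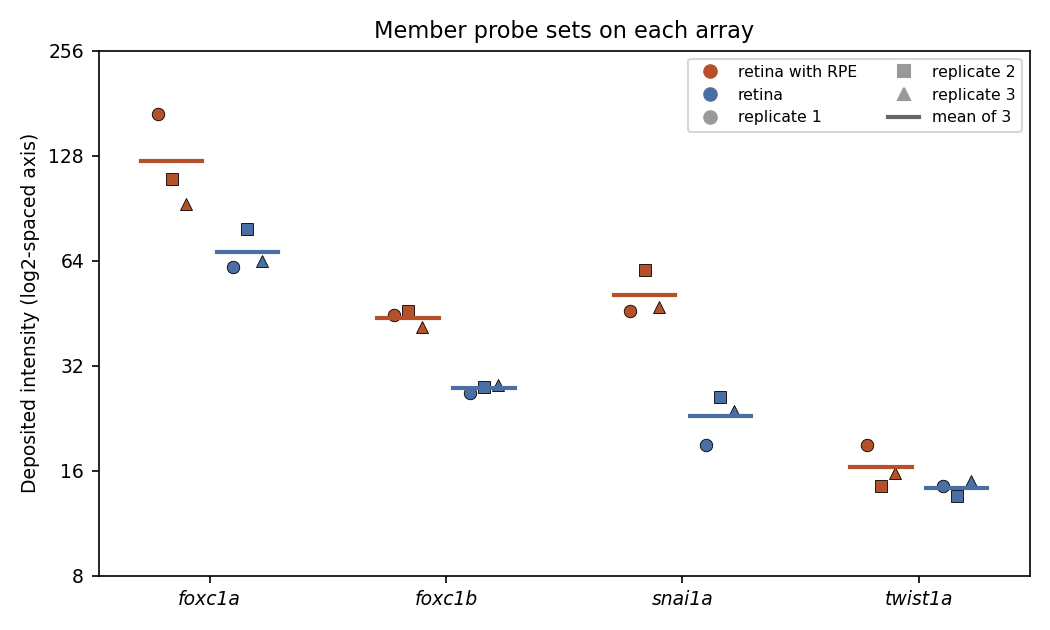
Deposited intensity of the 4 probe sets on each of the 6 arrays, on a log2-spaced axis, with marker shape for the replicate and a bar for the mean of 3 pools. The groups are separate for foxc1a, foxc1b and snai1a and overlap for twist1a, and the retina with RPE pool 1 is the highest for foxc1a at 169.

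The arrays differed in a way that touches dim probe sets, and the 4 genes were dim or of middling level. The lower quartile of intensity was 27.8 to 28.4 in retina with RPE and 24.9 to 26.0 in retina, and the upper quartile 265 to 271 in retina with RPE and 285 to 293 in retina. Probe sets at a mean log2 level of 5 to 6 had a median change of 0.16 and 31.4% were called higher, while at a level of 8 to 9 the median was -0.12 and 12.1% were called higher. Each gene was therefore set beside the probe sets within 0.5 log2 units of its own mean level. Around snai1a, 30.9% of 2901 probe sets were called higher and 0.276% changed by as much as it did or more. Around foxc1b 30.7% of 2884 were called higher and 2.50% changed as much, and around foxc1a 24.0% of 2167 and 2.08%. Around twist1a 13.9% of 2738 were called higher and 3.21% lower, and 27.6% changed as much. These shares are descriptions of the arrays, since probe sets are not replicates.

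**Figure D2:**
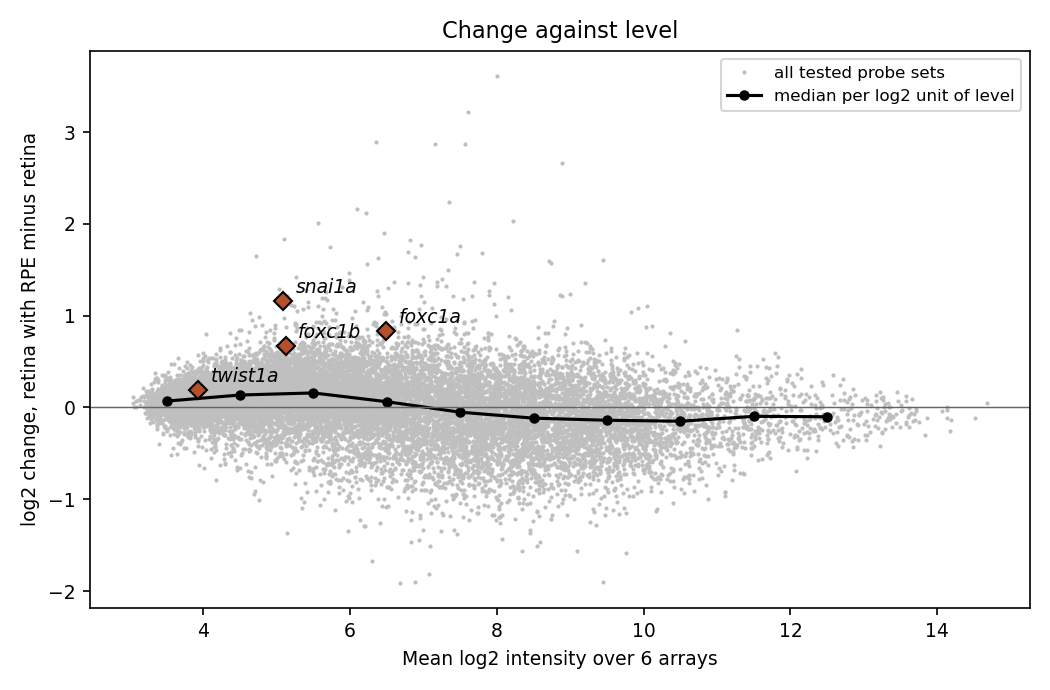
The log2 change, retina with RPE minus retina, of every tested probe set against its mean log2 intensity over 6 arrays, with the median per log2 unit as a line and the 4 genes as diamonds. The line is at 0.16 between levels 5 and 6 and at -0.12 between 8 and 9, and snai1a, foxc1a and foxc1b lie at 1.16, 0.83 and 0.67, far above it, while twist1a lies at 0.19.

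Measures of RNA quality and labelling gave these values in the same pools. The control probe set at the 3' end of gapdh exceeded that at its 5' end by a log2 value of 2.99 ± 0.212 in retina with RPE and 3.12 ± 0.149 in retina (SD, n = 3 each, exact permutation p = 0.5). The 24 bacterial poly-A control probe sets, added to samples before labelling, read 1.07-fold to 3.32-fold higher with RPE (exact permutation p = 0.1 on their mean log2 value, the smallest possible). The 18 hybridization control probe sets read 0.659-fold to 1.18-fold with RPE, a median of 0.835-fold (exact permutation p = 0.9 on their mean log2 value). The part of the poly-A difference in the changes of the 4 genes was not tested. The probe set of foxc1b is marked A in its identifier and the other 3 are marked S. Over all probe sets the median log2 change was 0.02 for class A and 0.08 for class S.

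Close relatives of the 4 genes were measured on the same arrays. From a list of 16, 5 genes had a probe set. Of these 3 rose, none fell and 2 were not called, against 19.4% of all genes higher and 17.0% lower. Their median retina level was 33.4. Of all probe sets at a mean log2 level of 5 to 6, 31.4% were called higher and 7.43% lower. The crest repressor snai2 read 52.1, 54.4 and 58.7 in retina with RPE, against 32.9, 35.4 and 36.5 in retina, a log2 change of 0.66 ± 0.0887 (SE, limma adjusted p = 7.9e-04). The 2 dimmer probe sets of snai2 changed by 0.09 and -0.03 and were not called. The second zebrafish Snail1 gene snai1b changed by 0.42 ± 0.109 (SE, limma adjusted p = 0.0146), with 49.6 ± 5.49 in retina with RPE and 36.9 ± 3.21 in retina (SD, n = 3 each). All pools with RPE exceeded all retina pools for both.

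The Twist family relative twist3 read 47.0, 47.9 and 48.6 in retina with RPE, against 26.9, 37.9 and 35.4 in retina, a log2 change of 0.53 ± 0.124 (SE, limma adjusted p = 0.00953). The retina pools varied more than the pools with RPE, and the groups did not overlap. The forkhead gene foxl1 changed by 0.15 and snai3 by 0.03, and neither was called. Of lmx1 genes, lmx1a was looked at after its values were seen, and of its 3 probe sets 1 changed by 0.37 and was called, while the others, at 0.20 and -0.10, were not.

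The change of snai1a exceeded that of snai1b by 0.73 ± 0.132 and that of snai2 by 0.50 ± 0.171 on the log2 scale (SE, exact permutation p = 0.1 each, the smallest possible, 0.2 after adjustment over 4 pairs). The change of twist1a lay below that of twist3, at a difference of -0.35 ± 0.215 (SE, exact permutation p = 0.2, adjusted 0.267).

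Other transcription factors of neural crest and head mesenchyme moved in both directions. Of 43 listed genes 26 had a probe set, and 12 rose, 2 fell and 12 were not called, with a median log2 change of 0.23. Over all 8793 genes, each by its brightest probe set, 19.4% rose and 17.0% fell. The list was dim, with a median retina level of 29.6. Of all probe sets at a mean log2 level of 4 to 5, 24.0% were called higher and 5.14% lower. At a level of 5 to 6 the shares were 31.4% and 7.43%. The periocular factor genes alx1 and eya2 were not matched to a probe set, which limits how far the label of the group can be checked. The crest factors sox10 and foxd3 changed by 0.77 ± 0.0927 and 0.73 ± 0.104 (SE, limma adjusted p = 4.6e-04 and 0.00100). The gene sox10 is also on the list of crest pigment cell genes given below. The jaw homeobox gene dlx5a changed by 0.74 ± 0.0919, the cartilage factor sox9a by 0.62 ± 0.0994, the somite factor tcf15 by 0.60 ± 0.0836 and the endothelial and crest factor ets1 by 0.55 ± 0.101 (SE). A second probe set of ets1 changed by -0.02 and was not called. Among the 12 genes not called were dlx2a at 0.18, barx1 at 0.13, hand2 at 0.10 and gsc at 0.02.

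The paired-type homeobox genes prrx1a and prrx1b, known from limb and head mesenchyme, changed by 0.50 ± 0.107 and 0.41 ± 0.104 (SE), and both were called. They were named after their values were seen. The 2 genes that fell were tfap2c, at -0.53, and sox9b, at -0.37, a gene also active in Müller glia. Each had a dimmer probe set, at 0.07 and 0.18, that was not called. The crest and amacrine cell factor tfap2a changed by -0.25 and was not called.

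**Figure D3:**
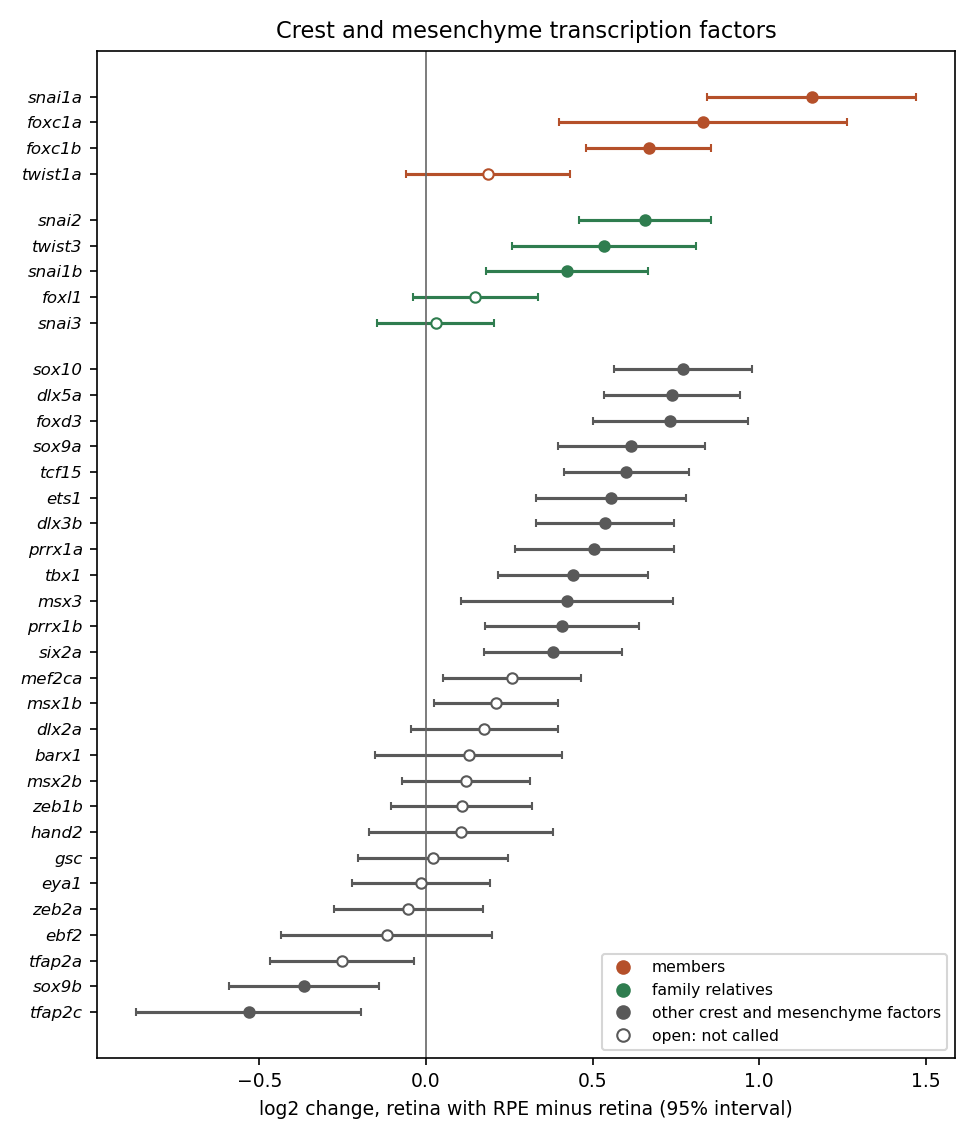
The log2 change, retina with RPE minus retina, with its 95% limma interval, of the 4 genes, their 5 measured relatives and 26 other crest and mesenchyme factors, each by its brightest probe set, with open circles for genes not called. The point of snai1a at 1.16 is the farthest right, and tfap2c at -0.53 the farthest left.

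Of 55 listed matrix and surface genes of mesenchyme, cartilage and cornea 32 were measured. Of these 18 rose, 0 fell and 14 were not called, with a median log2 change of 0.28. Of all genes 19.4% rose and 17.0% fell. The median retina level of the list was 41.2. Probe sets at a mean log2 level of 5 to 6 had 31.4% called higher, 7.43% lower and a median change of 0.16. The 2 largest rises on the list were those of the cartilage collagen gene col2a1a and the collagen chaperone gene serpinh1b. Next were col9a2 and sparc, at log2 changes of 1.325 ± 0.172 and 1.23 ± 0.148 (SE), both highest in pool 2. In retina with RPE col9a2 read 280, 292 and 194, and sparc 411, 422 and 281. In retina they read 117, 105 and 82.2, and 146, 155 and 168. The matrix gene tgfbi, whose human counterpart is mutated in corneal dystrophies, read 83.5, 49.0 and 38.9 in retina with RPE, against 27.6, 22.2 and 25.4 in retina, a log2 change of 1.12 ± 0.229 (SE, limma adjusted p = 0.00539). The periostin gene postnb read 39.5, 26.1 and 19.7 in retina with RPE, against 14.6, 14.2 and 18.2 in retina, a log2 change of 0.81 ± 0.214 (SE, limma adjusted p = 0.0167). For both, pool 1 with RPE was the highest, as it was for foxc1a.

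The collagen gene col2a1a read 320, 223 and 132 in retina with RPE, against 57.7, 60.3 and 61.8 in retina, again highest in pool 1. In contrast serpinh1b read 382 in both pool 1 and pool 2 and 251 in pool 3 with RPE, against 110, 82.7 and 104 in retina. The corneal keratan sulfate gene kera changed by 0.10 and the stromal proteoglycan gene dcn by 0.23, and neither was called. The cell adhesion gene cdh11 of loose mesenchyme changed by 0.23 and was not called, nor was its second probe set at 0.32.

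The pools with RPE did not rank alike for all groups of genes. Of the 18 matrix genes that rose, 11 were highest in pool 1, 4 in pool 2 and 3 in pool 3. Among all 1706 genes called higher, 22.9% were highest in pool 1, 30.8% in pool 2 and 46.4% in pool 3. Among the 12 other crest and mesenchyme factors that rose, 8 were highest in pool 3. The members of the group split between pools, with foxc1a highest in pool 1 and foxc1b and snai1a in pool 2. These counts were made after the values were seen and carry no test.

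As a mean over genes of the log2 deviation from the retina mean, the matrix list stood at 0.59, 0.49 and 0.35 in the 3 pools with RPE. The 4 factor genes stood at 0.86, 0.71 and 0.56. The list of RPE and melanin genes stood at 1.75 to 2.13 in the same pools, and pool 3 was lowest in all 3 lists. The other crest and mesenchyme factors stood at 0.22, 0.27 and 0.27. The fall from pool 1 to pool 3 was also seen in lists of other tissues, given below. The muscle list stood at 0.46, 0.36 and 0.28, the leukocyte list at 0.47, 0.41 and 0.33 and the red cell list at 0.18, 0.08 and 0.03. Not in that order were the vessel list, at 0.36, 0.43 and 0.42, surface epithelium, at 0.30, 0.33 and 0.34, and crest pigment, at 0.86, 1.02 and 0.87. With 3 pools these orders are descriptions.

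**Figure D4:**
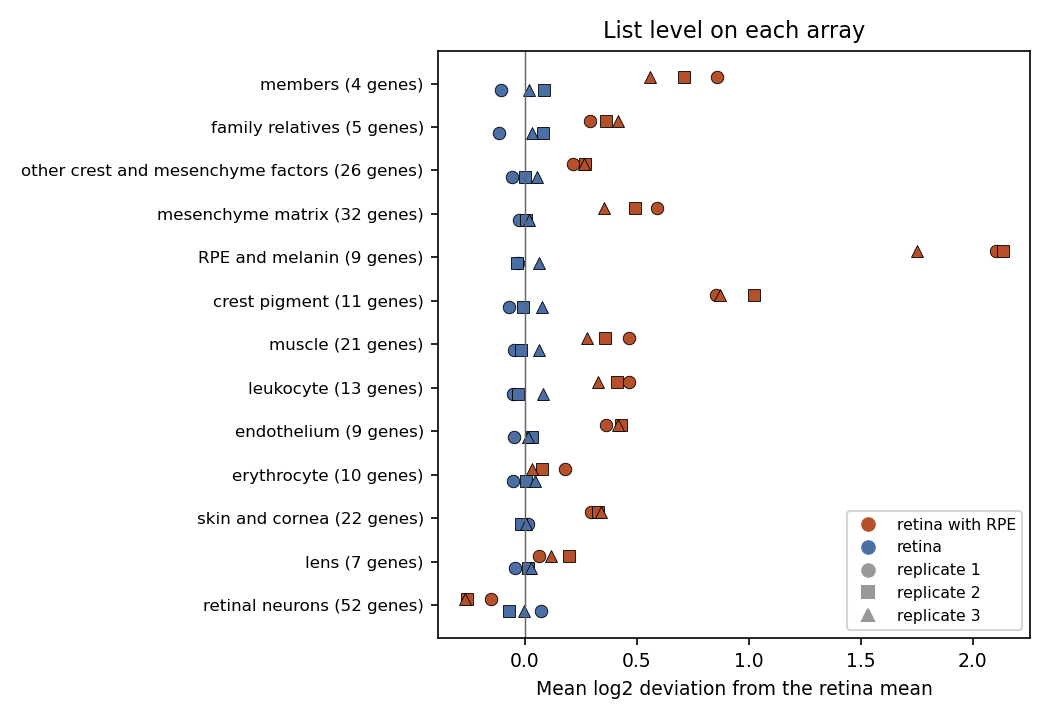
Mean log2 deviation from the retina mean for each list on each of the 6 arrays, in log2 units, with marker shape for the replicate. The pools with RPE lie at 0.56 to 0.86 for the 4 factor genes, 0.35 to 0.59 for the matrix list and 1.75 to 2.13 for RPE and melanin genes, and the retina pools lie near 0.

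Some marker genes of other tissues were also higher in the pools with RPE. Of 21 muscle genes 9 rose and 0 fell, and of 9 vessel genes 6 rose and 0 fell. Of 11 genes of crest pigment cells 6 rose and 0 fell, and of 13 leukocyte genes 7 rose and 0 fell. Over all genes, each by its brightest probe set, 19.4% rose and 17.0% fell. These 4 lists were dim, with a median retina level of 31.6 to 37.8. Of all probe sets at a mean log2 level of 4 to 5, 24.0% were called higher and 5.14% lower. At a level of 5 to 6 the shares were 31.4% and 7.43%, so falls were uncommon among dim probe sets. Summed over the muscle list, intensity was 1399 to 1591 in retina with RPE and 1003 to 1122 in retina. The vessel list summed to 556 to 574 in retina with RPE and 358 to 395 in retina, and the crest pigment list to 1880 to 2388 in retina with RPE and 1189 to 1280 in retina. The matrix list summed to 2617 to 3374 in retina with RPE and 1841 to 1911 in retina, and the leukocyte list to 859 to 909.8 in retina with RPE and 606 to 722 in retina. Of 22 surface epithelium genes 7 were called higher, or 31.8%, and 2 lower. That list summed to 1024 to 1086 in retina with RPE and 673 to 714 in retina. It was led by the keratin gene krt8 at a log2 change of 1.90, ahnak at 1.63 and anxa2a at 1.21. The 2 that fell were anxa1a, at -0.55, and epcam, at -0.28, and the list median was 0.12. The keratin genes krt4, at 0.22, and krt5, at -0.09, were not called. Of 10 red cell genes 3 rose, or 30%, and 1 fell, with sums of 4110 to 6031 in retina with RPE and 3283 to 4265 in retina. For these 2 lists the share called higher was near that of all probe sets at levels of 4 to 6. Of 7 lens genes 1 rose and 0 fell, with sums of 651 to 675 in retina with RPE and 608 to 746 in retina. The sums overlapped between the groups for red cells and lens, and for none of the other 6 lists given here. The muscle list had a median log2 change of 0.25, and its largest rise was that of eno3, at 1.37. The muscle determination gene myod1 changed by 0.29 and was called (limma adjusted p = 0.0354). It read 13.5 in retina with RPE and 11.1 in retina, near the low end of the array. The vessel gene fli1 read 82.7 in retina with RPE and 52.9 in retina. Larger rises on the vessel list were those of plvapb, at a log2 change of 0.91, and flt4, at 0.77. On the crest pigment list the largest were gch2 at 2.89 ± 0.222, crestin at 2.24 ± 0.0859 and slc2a15b at 2.16 ± 0.0918 (SE). Each exceeded the rise of every member, while 5 genes of that list were not called and its median was 0.32. A second probe set of gch2, at 0.10, was not called, and that of slc2a15b, at 0.42, was. The part of each of these tissues in the rise of foxc1a, foxc1b and snai1a was not tested. In bulk pools, a change in the number of cells of a type and a change in RNA per cell cannot be told apart.

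Epithelial junction genes include genes that Snail and Twist proteins are known to repress in other settings. Of 14 measured genes 1 rose, 3 fell and 10 were not called, with a median log2 change of 0.09. The share that fell was 21.4%, against 17.0% of all genes, and 19.4% of all genes rose. The median retina level of the list was 24.3. Of all probe sets at a mean log2 level of 4 to 5, 24.0% were called higher and 5.14% lower. Any link of the changes on this list to Snail or Twist proteins was not tested. The classical Snail target cdh1 read 15.9 in retina with RPE and 14.5 in retina, a log2 change of 0.13 ± 0.0886 (SE) that was not called. Several of the 14 were dim in retina, with cldn7b at 10.9 and oclnb at 10.6, so a fall of these genes or of cdh1 may not have been measurable. The plakoglobin gene jupa changed by -1.33 ± 0.121, the claudin gene cldn5a by -1.12 ± 0.222 and the adhesion gene epcam by -0.28 ± 0.0864 (SE). Neural cadherin cdh2 changed by 0.25 ± 0.0818 (SE). The gene jupa was bright in retina, at 557, and 29.8% of 1719 probe sets within 0.5 log2 units of its mean level were called lower. The other probe sets of cldn5a changed by 0.06 and 0.35, the second of them called, and that of epcam by 0.23, not called, so the falls of these 2 genes depend on the probe set. The second probe set of cdh2, at -0.35, was not called.

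Retinoic acid and TGF-beta are signals known to act on periocular mesenchyme. Of 28 listed genes of these signals 18 were measured, and 8 rose, 0 fell and 10 were not called, with a median log2 change of 0.24. Of all genes 19.4% rose and 17.0% fell. By brightest probe set, the largest rise on the list was that of the retinol receptor gene stra6, at 2.12 ± 0.149 (SE), also on the list of RPE genes. Next was cyp26a1, which encodes an enzyme that breaks down retinoic acid, at 0.67 ± 0.130 (SE). The brightest probe set of cyp26b1 changed by 0.02 and was not called. Of its other probe sets the one at 0.69 was called, and those at 0.07 and 0.27 were not. The retinoic acid receptor gene rarga, expressed in crest mesenchyme, read 153, 186 and 171 in retina with RPE, against 105, 149.5 and 124 in retina, a log2 change of 0.44 ± 0.132 (SE, limma adjusted p = 0.0286). The TGF-beta receptor gene tgfbr2b changed by 0.44 ± 0.112, the ligand gene tgfb1a by 0.42 ± 0.0942 and the pathway inhibitor gene smad7 by 0.37 ± 0.0866 (SE), and each was called. A second probe set of rarga, at 0.25, and of tgfbr2b, at 0.10, were not called. The synthesis gene aldh1a2, at 0.23, and rarab, at 0.03, were not called.

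Genes whose values ran most like each member were found by the root mean square difference over the 6 arrays, each array taken relative to the retina mean. Nearest to foxc1a were the chondromodulin gene cnmd (0.133, Pearson r = 0.986), the homeobox gene irx1b (0.145, r = 0.957) and the skeletal actin gene acta1a (0.160, r = 0.949). The gene cnmd read 70.4, 43.0 and 36.1 in retina with RPE, against 24.8, 26.6 and 22.0 in retina, with the same high pool 1. Nearest to foxc1b were adam19b (0.0506, r = 0.992), insyn1 (0.0547, r = 0.990) and the ciliary transport gene ift80 (0.0557, r = 0.997). Nearest to snai1a were the LIM domain gene fhl3a (0.111, r = 0.995), spdya (0.118, r = 0.984) and rsrp1 (0.121, r = 0.983). A second probe set of spdya changed by 0.10 and was not called. The likeness rests on 6 arrays that share the group difference, and so describes these arrays only.

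The study deducted the retinal contribution from the mixed pools to estimate levels in RPE. The yields behind that deduction are not used here. Taken instead from 29 genes of retinal neurons that were bright in retina, the retinal share of the mixed pools was 71.4%. Its interquartile range over genes was 0.625 to 0.907. The genes were kept by their level in retina alone, a choice that can bias the share downward. The size of that bias was not tested. With that share, the excess tissue was estimated to hold 5.31-fold the retinal level of snai1a (3.79 to 7.20), 3.73-fold that of foxc1a (2.11 to 5.91) and 3.06-fold that of foxc1b (2.39 to 3.84). For twist1a the estimate was 1.48-fold (0.858 to 2.23). The intervals carry the 95% limma interval and hold the share fixed. Over the other shares tried, the estimate ran from 5.15 to 6.80 for snai1a, from 3.63 to 4.67 for foxc1a and from 2.99 to 3.78 for foxc1b. These ranges vary the share alone and keep the fold of the deposited values, also where the share came from rescaled values. With the share at its lower and upper quartile over genes, settings added after the data were seen, it ran from 4.28 to 14.3 for snai1a, from 3.08 to 9.39 for foxc1a and from 2.57 to 7.36 for foxc1b, so the sizes of these estimates depend strongly on the share. By the same arithmetic rpe65a, the retinoid isomerase of RPE, came to 40.2-fold and the cartilage collagen gene col2a1a to 9.85-fold. The retinal neuron genes atoh7 and gad1b came to -0.951-fold and -0.803-fold, and the junction gene jupa to -1.11-fold. Levels below 0 are not possible, so a single share did not hold for every gene. Other retinal neuron genes stayed above 0, such as neurod1 at 0.687-fold. The arithmetic assigns to RPE whatever the mixed pools hold beyond retina, and so gives foxc1a, foxc1b and snai1a an RPE level whichever attached cells carried them.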

How the data were processed

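Members and gene lists were chosen with earlier results of these data known. The authors' deposited values were linear intensities, 1 per probe set and array. RMA, affy and R 2.2.0 are the tools named, per the submitters' processing notes, which do not say how they were combined. Intensity was log2 transformed here with no pseudocount. The 115 control probe sets were left out. The platform annotation, brought up to date through gene identifiers, gave 10795 probe sets 1 gene, 135 several and 4572 none. The groups were compared by a 2-sided eBayes test after lmFit (limma 3.58.1 under R 4.3.3) with Benjamini-Hochberg adjustment over 15502 probe sets, after the fit was tested on simulated data. The number of arrays limits the precision. Lists took the brightest probe set of a gene. Named were all members, called relatives, and the 3 genes most like each called member. Up to 6 called genes with separate groups were named from a list. These were not in every list those with the largest changes, and from some lists none was named. Also named were myod1, genes stated to be chosen later and uncalled markers given as values. The retinal share was a median ratio over retinal neuron genes whose mean log2 value in retina was at least 8. Permutation tests used scipy 1.17.1, and figures matplotlib 3.10.9. Alternatives are given under the closing section.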

Additional observations from a re-analysis of the deposited data

Results flagged for a closer look

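Bacterial poly-A control probe sets, which are outside the comparison of genes, read a median of 1.59-fold higher in retina with RPE than in retina over 24 probe sets. All are added to RNA before labelling, and the difference has an exact permutation p = 0.1, the smallest possible.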

How the results depend on the processing

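The rises of foxc1b and snai1a kept their direction and call under every alternative that tested them, with log2 changes of 0.46 to 0.71 and 0.78 to 1.25 (limma or ordinary adjusted p of 1.8e-04 to 0.0174 and 6.3e-05 to 0.0358). That of foxc1a kept its direction at 0.58 to 1.01, with adjusted p of 0.0054 to 0.117, and lost its call in the ordinary test alone. The gene twist1a stayed uncalled at 0.08 to 0.27 (0.117 to 0.606). Of the 4 probe sets 3 were called when any 1 array was left out (3 to 3). The filter on a mean log2 value of 6 or more kept foxc1a alone of the 4, and 1 of 1 was called. It called 3112 of 8131 probe sets, 1179 higher and 1933 lower, against 5355 of 15502 with no filter. The ordinary test called 2331, and leaving out 1 array gave 3439 to 5104, the lowest without retina with RPE replicate 3. The retinal share was 0.734 from genes at a log2 value of 10 or more, 0.741 after centring on ribosomal protein genes and 0.788 after quantile normalization, and leaving out 1 array gave 0.703 to 0.772. With the replicate number as a block 5786 probe sets were called and no member's call changed. Same-numbered pools deviated together at r = 0.175, 0.0786 and 0.130, and each pool correlated best with its own number, but 1 value lay under 0.1, so the pools were not treated as paired. The numbers are those of the descriptions, and the titles of retina with RPE replicates 2 and 3 also carry in-house names numbered differently. Averaging over probe sets was not run, since each member has 1.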
